A study of Mus musculus with 18 samples.

Results

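Of the 18 libraries of the series, 12 were compared here: those with the empty vector and those with Y238A MRTFA, in each of 2 mouse mammary carcinoma lines, AT-3 and E0771, with 3 libraries per line and construct. The quantity of interest was the interaction of line and construct, computed for each gene as the log2 fold change of Y238A against empty vector in E0771 minus the same fold change in AT-3. A value above 0 means that the gene moved higher, or fell less, in E0771 than in AT-3, and a value below 0 means the reverse. Both lines carried pRetroX, a retroviral vector with a promoter switched on by doxycycline, and the empty form of it was the control. Every group, the controls included, received doxycycline at 2 µg/ml for 48 h. The labels call Y238A an MRTFA that is deficient in binding SRF, and they do not say whether a line was a clone or a pool of infected cells. The 6 libraries with wild-type MRTFA entered the fit, so that all groups shared an estimate of the spread. The series speaks of 3 replicate sets without saying whether these were separate cultures, so the p-values measure the spread between these libraries, which may be technical.

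MRTFA is a coactivator that is held in the cytoplasm by monomeric actin. When actin polymerises it is released, enters the nucleus and binds the transcription factor SRF, which sits on short DNA elements called CArG boxes near genes for actins, actin-binding proteins and focal adhesion proteins, and near the Srf gene itself. MRTFA can also reach chromatin without SRF through its SAP domain. In carcinoma cells the MRTF-SRF pathway is known for its part in contractility, stiffness and invasion.

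The 12 libraries held between 81824854 and 100630270 counts, and levels are given as CPM, the count scaled to a fixed library size with TMM factors. Even values made up 62.2% to 63.9% of the nonzero counts, as they would be if each mate of a pair was counted. Transcripts of 240 genes expressed in AT-3 alone were found at 1.35% of their AT-3 level in E0771 empty vector replicate 2 and at 0.269% in E0771 Y238A replicate 1, and at 0.0616% or less in the remaining E0771 libraries of the 12. Among the wild-type libraries, which entered the fit only, E0771 replicate 2 held 0.508%. A further 28 genes were expressed with wild-type MRTFA in AT-3 and nearly absent from the AT-3 controls. Their absence with Y238A was not asked for. In these genes AT-3 Y238A replicate 1 held 1.31% of the wild-type level, against 0.264% and 0.111% in replicates 2 and 3. E0771 Y238A replicate 2 stood apart from its group, with a chi-square per degree of freedom of 57.6 and 68.6 against the other 2 libraries, which differed from each other by 12. Results are therefore also given without E0771 empty vector replicate 2, E0771 Y238A replicate 1 and AT-3 Y238A replicate 1. These are called the 3 carry-over libraries for short. The labels do not mention carry-over, and whether it was the source of these transcripts was not tested. AT-3 Y238A replicate 1 was also the library of its group with the most construct. E0771 Y238A replicate 2 was left out in a further fit. Such alternatives are shown for the main lists and for other lists with counts that moved by over 1.5 times, though not for every such count. Of 10 mammary epithelial markers, 4 passed 1 CPM in either empty vector group. The keratin Krt8 had a mean of 0.0573 CPM in AT-3 controls and 317 CPM in E0771 controls, so AT-3 lacked it. Epcam was also higher in E0771 controls (0.760 against 2.02 CPM). Krt14, Krt19 and Trp63 went the other way, with 6.83, 3.88 and 3.34 CPM in AT-3 against 1.81, 0.0399 and 0.151 CPM in E0771. So did Krt7, Krt18 and Cdh1 by their means. Krt8 thus made up nearly all of the E0771 sum that follows. The summed level of the 10 was 17.5 to 18.7 CPM in AT-3 with the empty vector and 79.0 to 96.6 CPM with Y238A, against 307.5 to 332 and 379 to 403 CPM in E0771. In AT-3 the higher sum was mostly Krt19, at a mean of 3.88 and then 69.5 CPM, while Krt7 went from 2.10 to 0.189 CPM and Trp63 from 3.34 to 1.68 CPM. The 10 leukocyte markers summed to between 5.38 and 6.15 CPM in AT-3 with the empty vector and to between 71.7 and 77.1 CPM with Y238A, nearly all of it Cd68, a lysosomal glycoprotein, while the pan-leukocyte gene Ptprc stayed at or under a mean of 0.0237 CPM in all 4 groups. In E0771 the same sum lay between 7.77 and 9.70 CPM and between 15.2 and 19.95 CPM, and the part of these markers in the results was not tested.

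The amount of construct differed between the lines. The entry counted as the MRTFA construct had 2326, 2029 and 1958 CPM in the 3 AT-3 Y238A libraries and 354, 325 and 279.9 CPM in the 3 E0771 Y238A libraries, and at most 0.115 CPM in the 6 empty vector libraries. All E0771 Y238A libraries lay below all AT-3 ones, with a log2 difference of -2.72 ± 0.21 (adjusted p = 5.11e-08). The effect of the line on a response and that of the amount of construct cannot be told apart in this design. The endogenous Mrtfa gene did not pass the test in either line (interaction -0.07 ± 0.06, adjusted p = 0.444), and the interaction of its paralog Mrtfb did not pass (0.18 ± 0.08 (adjusted p = 0.0941)).

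The Y238A effect differed between the lines in 4603 of 17841 genes tested (25.8%), 2174 of them (12.2%) with the E0771 value above the AT-3 value and 2429 (13.6%) below, and 1011 by at least 2-fold. The E0771 response was the smaller one for most of them. In AT-3, 7788 genes passed the test (43.7%), 3825 higher and 3963 lower, and in E0771 2149 passed (12%), 965 higher and 1184 lower. Of the 4603 genes, 3400 passed in AT-3 alone, 234 in E0771 alone, 605 in both lines with the same sign, 179 in both with opposite signs and 185 in neither. Among the 605 with the same sign, the change was larger in AT-3 for 579 and larger in E0771 for 26. Over 10219 genes with a mean of at least 1 CPM in both lines, the AT-3 and E0771 log2 fold changes had a Pearson r of 0.576 and a Spearman rho of 0.428 across genes, which are not independent replicates, and the median absolute log2 fold change was 0.258 in AT-3 and 0.112 in E0771. In bulk RNA a lower level in every cell and fewer cells with the transcript cannot be told apart. Of the interaction calls, 4005 (87.0%) were in genes that reached 1 CPM in both lines. Whether more of them lay above or below 0 depended on the scaling and the filter: the share above 0 was 47.2% here, 51.9% with the size factors of DESeq2 and 56.8% when the 12 libraries were fitted alone.

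**Figure D1:**
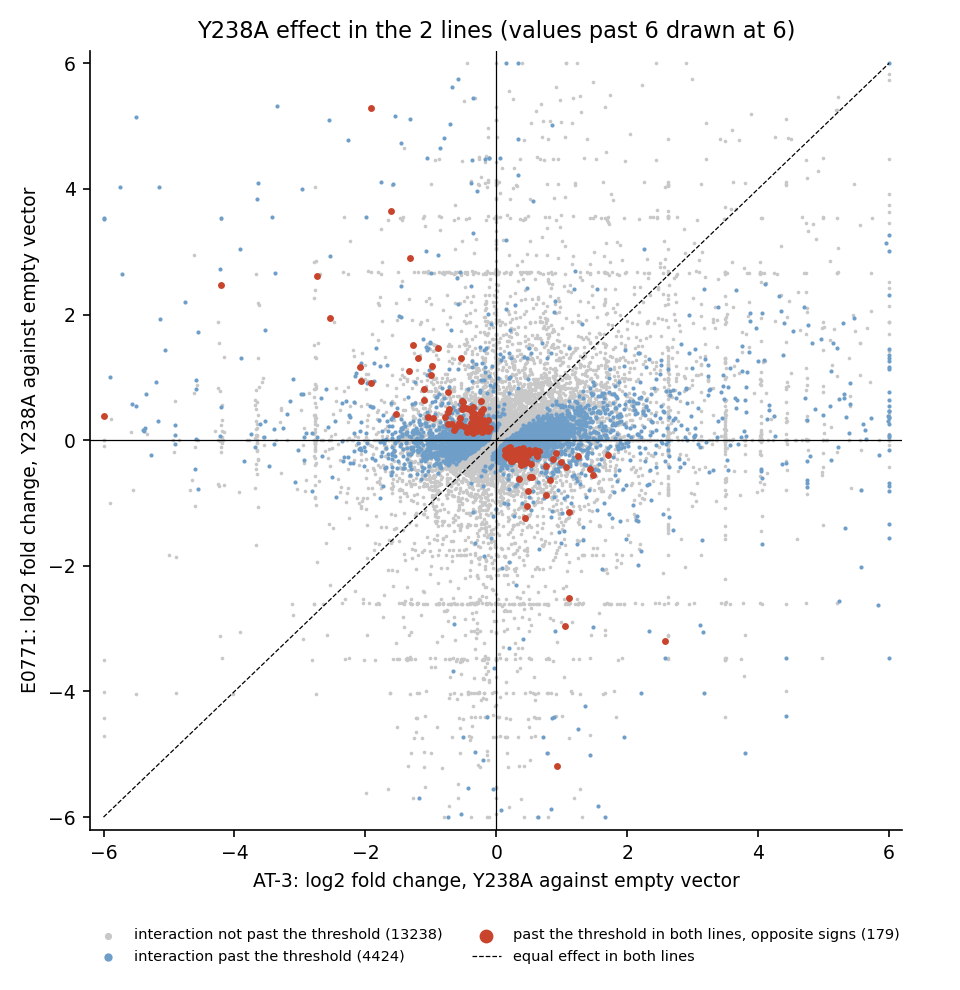
Log2 fold change of Y238A against empty vector in AT-3 (horizontal) and in E0771 (vertical) for the 17841 genes tested, with the 179 genes past the threshold in both lines with opposite signs in red and the other interaction calls in blue. Most blue points are spread along the AT-3 axis and lie close to 0 on the E0771 axis.

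Genes that changed in opposite directions were few. The 179 made up 1.0% of genes tested, 75 of them (0.420%) higher in E0771 and lower in AT-3 and 104 (0.583%) the other way round. Most of these changes were small: the smaller of the 2 absolute log2 fold changes had a median of 0.238, and 25 genes reached 1.5-fold and 14 reached 2-fold in both lines. The count fell to 73 without the 3 carry-over libraries, a fit with fewer samples, and 65 genes were in both sets. It was 99 without E0771 empty vector replicate 2 alone, 110 without E0771 empty vector replicate 3, and 295 with DESeq2. The 10 genes per direction with the largest smaller effect, among those with at least 1 CPM in both lines, are described next; in all 20 the Y238A and empty vector libraries did not overlap in either line. The rule selected them on the interaction and on the size and test of both single-line effects, so their adjusted p-values and the lack of overlap describe the choice.

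Among the genes that rose in E0771 and fell in AT-3 were a transcription factor, a protease and a junction protein. Irf5 (ENSMUSG00000029771, chr6:29526625-29541871, GRCm38), a transcription factor of innate immune signalling, had 3.24, 2.81 and 3.87 CPM with the empty vector and 1.63, 1.26 and 1.45 CPM with Y238A in AT-3. In E0771 it had 1.82, 2.06 and 1.21 CPM with the empty vector and 4.69, 4.04 and 3.89 CPM with Y238A. Its level was thus high in AT-3 controls and in E0771 Y238A libraries and low in the other 6, with log2 fold changes of -1.19 ± 0.22 and 1.31 ± 0.21 and an interaction of 2.5 ± 0.30 (adjusted p = 3.13e-06). Mmp9 (ENSMUSG00000017737, chr2:164940780-164955850), a gelatinase that cleaves basement membrane collagen, had 13.7, 13.6 and 11.9 CPM with the empty vector and 5.78, 5.32 and 4.38 CPM with Y238A in AT-3. In E0771 it had 4.25, 4.53 and 4.31 CPM with the empty vector and 9.94, 10.1 and 7.94 CPM with Y238A, and its interaction was 2.43 ± 0.17 (adjusted p = 1.84e-09). The lines exchanged places: the AT-3 controls had more Mmp9 than all E0771 libraries, and the E0771 Y238A libraries had more than all AT-3 Y238A libraries. Jup (ENSMUSG00000001552, chr11:100368958-100397763) encodes plakoglobin, which links cadherins to the cytoskeleton in desmosomes and adherens junctions. The AT-3 libraries had 73.2, 69.3 and 75 CPM with the empty vector and 36.6, 32.5 and 32.4 CPM with Y238A, and the E0771 libraries had 68.5, 68.3 and 68.7 CPM with the empty vector and 137, 98.7 and 127 CPM with Y238A. Both controls were alike in Jup, and Y238A moved it down in AT-3 and up in E0771 (interaction 1.92 ± 0.13, adjusted p = 1.01e-08).

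Several genes of lipid handling were among the same 10. Stard10, a phospholipid transfer protein, had 4.63, 4.48 and 4.0 CPM with the empty vector and 2.03, 2.02 and 2.04 CPM with Y238A in AT-3 and 5.49, 6.29 and 4.86 CPM with the empty vector and 8.81, 7.68 and 9.47 CPM with Y238A in E0771 (interaction 1.75 ± 0.21, adjusted p = 3.27e-06). Pltp, a secreted phospholipid transfer protein, had 4.37, 4.83 and 5.55 CPM with the empty vector and 3.68, 3.29 and 3.77 CPM with Y238A in AT-3. In E0771, Pltp had 87.8, 83.2 and 84.3 CPM with the empty vector and 124, 124 and 116 CPM with Y238A, far more than AT-3 in every library (interaction 0.97 ± 0.10, adjusted p = 5.77e-07). Gdpd5, a glycerophosphodiesterase, had log2 fold changes of -0.50 ± 0.10 in AT-3 and 0.60 ± 0.09 in E0771, and Sgms2, a sphingomyelin synthase, -0.51 ± 0.09 and 0.52 ± 0.09. Dhrs9, a retinol dehydrogenase, fell by 0.53 in AT-3 and rose by 0.62 in E0771 on the log2 scale. Without E0771 Y238A replicate 2, where Dhrs9 was highest, its E0771 value was 0.41 (adjusted p = 0.00976). The last 2, Gpt2 and Adh7, rested more on single libraries. Gpt2, an alanine aminotransferase, had 138, 111 and 115 CPM in the E0771 controls and 161, 210.1 and 145 CPM with Y238A, and its E0771 value without replicate 2 was 0.33 (adjusted p = 0.0521). Adh7, an alcohol dehydrogenase, had 23.1, 22.2 and 21.7 CPM in these controls and 25.8, 43.4 and 25.3 CPM with Y238A, and its E0771 value without replicate 2 was 0.19 (adjusted p = 0.286). In the main fit the E0771 value of Adh7 was near the threshold (adjusted p = 0.047). That call was lost in 15 of 21 alternative fits, and its AT-3 call in 7.

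The genes that fell in E0771 and rose in AT-3 were led by Vdr (ENSMUSG00000022479, chr15:97854425-97910630), the nuclear receptor of active vitamin D. Vdr had 204, 214 and 212 CPM with the empty vector and 466, 467 and 435 CPM with Y238A in AT-3. In E0771, Vdr had 30, 36.8 and 34.1 CPM with the empty vector and 17.8, 11 and 17 CPM with Y238A. It more than doubled in AT-3, where it was already higher, and dropped in each E0771 Y238A library (log2 fold changes 1.12 ± 0.12 and -1.14 ± 0.13, interaction -2.26 ± 0.18, adjusted p = 3.67e-07). Ndrg4 (ENSMUSG00000036564, chr8:95676980-95715119), of the N-myc downstream regulated family, had 117, 119 and 115 CPM with the empty vector and 194, 202 and 198 CPM with Y238A in AT-3. In E0771, Ndrg4 had 41.7, 46.2 and 46 CPM with the empty vector and 25.9, 21.8 and 25.2 CPM with Y238A (interaction -1.63 ± 0.09, adjusted p = 1.46e-10). Id3, an inhibitor of basic helix-loop-helix factors and a target of BMP signalling, had 93.7, 85.6 and 88.5 CPM with the empty vector and 123, 125 and 122 CPM with Y238A in AT-3. In E0771, Id3 had 50.9, 45.9 and 45.2 CPM with the empty vector and 27.8, 16.7 and 24.4 CPM with Y238A (interaction -1.51 ± 0.20, adjusted p = 5.60e-05). In both genes the gap between the lines was wider with Y238A than with the empty vector. For Id3's relative Id2, named after its values were seen, the E0771 value was -1.02 ± 0.13 and the AT-3 value, which did not pass, was 0.18 ± 0.12 (interaction -1.20 ± 0.18, adjusted p = 5.05e-05).

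Hist1h1c, a linker histone, started from the opposite order of levels: it had 11.9, 11.6 and 12.1 CPM with the empty vector and 19, 19.7 and 24.1 CPM with Y238A in AT-3. In E0771, Hist1h1c had 82.9, 84.2 and 77.5 CPM with the empty vector and 55.9, 50.7 and 50.7 CPM with Y238A, so the lines came closer together (interaction -1.46 ± 0.12, adjusted p = 2.03e-08). The same was seen for Aqp1, a water channel, with 7.79, 8.32 and 8.14 CPM with the empty vector and 24, 22.1 and 19.6 CPM with Y238A in AT-3 and 44.8, 37.1 and 36.6 CPM with the empty vector and 28.8, 32.3 and 25.5 CPM with Y238A in E0771 (interaction -1.89 ± 0.16, adjusted p = 4.62e-08). Sord, the sorbitol dehydrogenase of the polyol pathway, rose by 1.49 in AT-3 and had -0.56 in E0771 (log2), with an interaction of -2.04 ± 0.18 (adjusted p = 2.88e-07). Man1a, a Golgi mannosidase, had 1.07 ± 0.07 and -0.43 ± 0.08, and Krt80, a type II keratin, 0.75 ± 0.08 and -0.42 ± 0.08. Pde4b, a cyclic AMP phosphodiesterase, had 0.51 ± 0.12 and -0.59 ± 0.13, and Acad11, an acyl-CoA dehydrogenase, 0.55 ± 0.13 and -0.58 ± 0.13. Of the 20 genes, 6 lost their E0771 call without the 3 carry-over libraries: Acad11 at -0.59 (adjusted p = 0.0534), Adh7 at 0.61 (adjusted p = 0.073), Aqp1 at -0.49 (adjusted p = 0.0548), Gpt2 at 0.48 (adjusted p = 0.0933), Pde4b at -0.57 (adjusted p = 0.0548) and Sord at -0.53 (adjusted p = 0.066). Adh7 also lost its AT-3 call there, at -0.51 (adjusted p = 0.0628). In none of the 21 alternatives with a test per gene did any of the 20 lose its interaction call.

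**Figure D2:**
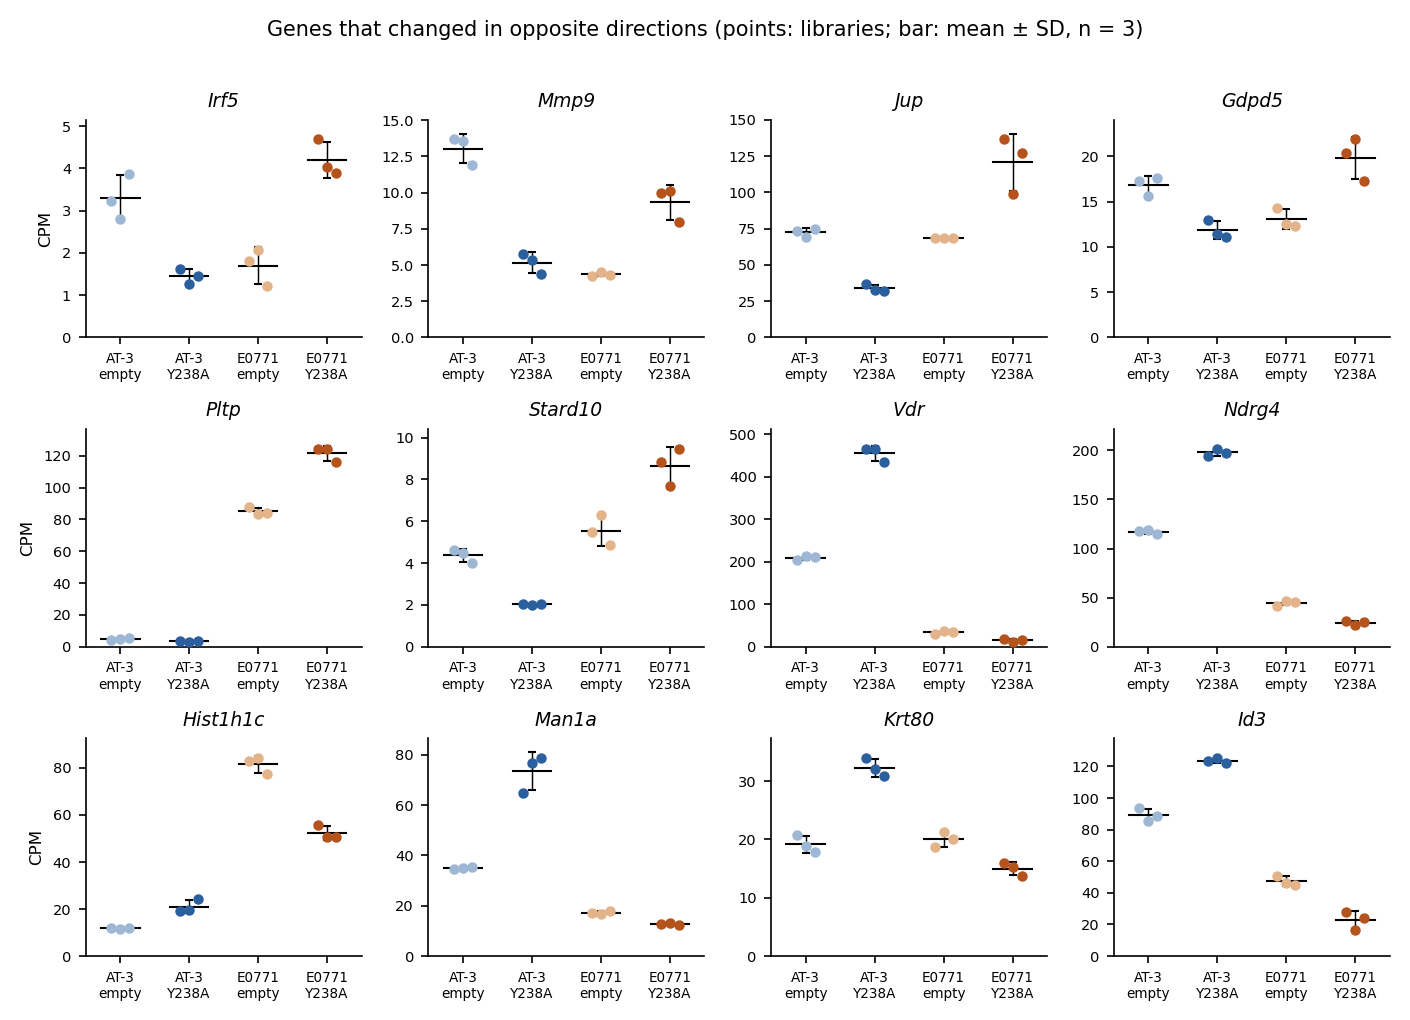
CPM (vertical, linear from 0) of 12 of the 20 genes in each of the 12 libraries, by line and construct, with the mean and SD of 3 libraries. The first 6 genes fell with Y238A in AT-3 and rose in E0771, and the last 6, from Vdr on, did the reverse; in each gene the libraries of the 2 constructs do not overlap within a line.

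The largest differences that are named here lay in genes that moved in AT-3 and much less in E0771. On the side of higher E0771 values stood Gli1 (ENSMUSG00000025407, chr10:127329882-127341974), the transcription factor at the end of Hedgehog signalling, with 6.18, 5.51 and 5.24 CPM with the empty vector and 0.645, 0.570 and 0.545 CPM with Y238A in AT-3. In E0771 it had 63.4, 66.3 and 64.6 CPM with the empty vector and 88.6, 50.8 and 83.6 CPM with Y238A, with overlapping groups, and the interaction was 3.46 ± 0.31 (adjusted p = 1.02e-06). Spry1, a feedback inhibitor of receptor tyrosine kinase signalling, had 6.79, 8.89 and 7.75 CPM with the empty vector and 1.23, 1.48 and 1.24 CPM with Y238A in AT-3, and 2.14, 1.85 and 1.63 against 2.12, 2.18 and 2.17 CPM in E0771 (interaction 2.77 ± 0.23, adjusted p = 2.46e-08). Krt7, Klhl23 and Sema4d, a keratin, a Kelch protein and a semaphorin, had AT-3 values of -3.47, -2.66 and -2.17 and interactions of 3.06 ± 0.40, 2.41 ± 0.26 and 2.78 ± 0.37. None of these 5 genes passed the test in E0771 in the main fit. Without E0771 Y238A replicate 2, the lowest of its group for Gli1, the E0771 value of Gli1 passed (adjusted p = 0.00854). That was a rise of at most 0.41 on the log2 scale. On the other side Gchfr (ENSMUSG00000046814, chr2:119167773-119172390), the feedback regulator of the first enzyme of tetrahydrobiopterin synthesis, had 1.76, 1.87 and 1.29 CPM with the empty vector and 57.9, 56.2 and 57.3 CPM with Y238A in AT-3. In E0771, Gchfr had 3.58, 3.34 and 3.31 CPM with the empty vector and 8.80, 5.77 and 7.33 CPM with Y238A. It rose in both lines without overlap of the groups, by 5.12 ± 0.15 and 1.1 ± 0.13 (interaction -4.02 ± 0.19, adjusted p = 9.47e-12). Serpinb9b, a serpin, had 1.92, 1.65 and 2.87 CPM with the empty vector and 43.5, 38 and 41.5 CPM with Y238A in AT-3, and 149, 157 and 154 against 158, 182 and 143 CPM in E0771, so AT-3 moved towards a level that E0771 held in its controls (interaction -4.19 ± 0.19, adjusted p = 5.59e-10). Slc22a4, a carnitine and ergothioneine transporter, had a like pattern, with 1.12, 1.23 and 1.19 CPM with the empty vector and 10.4, 8.84 and 9.75 CPM with Y238A in AT-3 and between 24.2 and 32.7 CPM in the 6 E0771 libraries. Fam19a5, a secreted peptide, and Glt8d2, a glycosyltransferase, had interactions of -3.65 ± 0.36 and -3.34 ± 0.29. The homeobox gene Hoxb13 had 0, 0.0421 and 0 CPM in the AT-3 controls, 4 counts in all, and 3.43, 2.80 and 3.5 CPM with Y238A, and in E0771 it rose from 9.12, 8.82 and 9.09 to 22.7, 14.9 and 23.3 CPM (log2 1.17 ± 0.16). Il1rl1 was among the 10 lowest values with a high level in E0771 empty vector replicate 2, which had 9.84 CPM against 0.924 and 1.18 CPM in the other 2 controls, and its interaction without the 3 carry-over libraries was -1.04 (adjusted p = 0.168).

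Targets of MRTF and SRF fell with Y238A in AT-3 and mostly less, or not past the threshold, in E0771. Of 42 genes for cytoskeletal targets, all tested, 30 fell and 5 rose in AT-3, 13 fell and 1 rose in E0771 (falls made up 22.2% and 6.64% of all genes), and the interaction passed in 18 with the E0771 value higher and in 3 with it lower. For the interaction the background was 12.2% and 13.6% of genes, and the median interaction was 0.27 in the list against -0.03 over all genes. Without the 3 carry-over libraries the interaction counts were 20 and 3, and without E0771 Y238A replicate 2 they were 22 and 4. The E0771 counts were 10 lower and 2 higher without the 3 libraries, and 7 lower and 4 higher without replicate 2. The list was drawn up with earlier results of these data known.

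Srf (ENSMUSG00000015605, chr17:46548329-46556175) had 186, 179.7 and 192 CPM with the empty vector and 97.4, 88.5 and 92.7 CPM with Y238A in AT-3. In E0771, Srf had 168, 169 and 150.2 CPM with the empty vector and 150.1, 116 and 141 CPM with Y238A. It fell in each AT-3 Y238A library to about the same level, and the E0771 groups, which did not overlap, lay closer together. The log2 fold changes were -1.0 ± 0.07 and -0.26 ± 0.07 and the interaction 0.74 ± 0.10 (adjusted p = 2.19e-05), and without E0771 Y238A replicate 2, the lowest of its group, the E0771 value was -0.16 (adjusted p = 0.0816). Myl9 (ENSMUSG00000067818, chr2:156775420-156781658), the regulatory light chain of nonmuscle and smooth muscle myosin, had 210.5, 209 and 210.3 CPM with the empty vector and 43.9, 25.3 and 20.4 CPM with Y238A in AT-3. In E0771, Myl9 had 22.7, 28.6 and 23.7 CPM with the empty vector and 18.8, 9.83 and 14 CPM with Y238A. Its AT-3 value was -2.81 ± 0.26, the E0771 value -0.81 ± 0.26 did not pass (adjusted p = 0.0602) although the groups did not overlap, and the interaction was 2.0 ± 0.36 (adjusted p = 0.00111).

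The 250 bases before the RefSeq start of both genes (GRCm38.p6) are shown because each holds a CArG box, the element that SRF binds; capitals mark the boxes. Srf is on the minus strand at chr17:46556163-46556412, with boxes 82 and 62 bases before the start, and Myl9 on the plus strand at chr2:156775214-156775463, with 1 box 161 bases before it.
Srf: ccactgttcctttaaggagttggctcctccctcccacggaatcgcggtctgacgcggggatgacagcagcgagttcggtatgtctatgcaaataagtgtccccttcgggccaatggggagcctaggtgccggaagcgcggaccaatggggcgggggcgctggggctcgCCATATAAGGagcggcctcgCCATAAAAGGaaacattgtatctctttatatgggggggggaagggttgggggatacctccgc
Myl9: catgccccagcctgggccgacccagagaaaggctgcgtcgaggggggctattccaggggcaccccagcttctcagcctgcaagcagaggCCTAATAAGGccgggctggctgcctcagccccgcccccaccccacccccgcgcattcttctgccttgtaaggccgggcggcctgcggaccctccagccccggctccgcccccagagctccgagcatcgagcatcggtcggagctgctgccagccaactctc
A CArG box, searched on both strands, lay in this window for 10 of the 36 cytoskeletal targets matched (27.8%), against 1.62% of all 27025 genes with a promoter in the table. By promoters of this length the shares were 25.0% and 1.47%. It was found in 1.81% and 1.34% of the matched genes with higher and lower E0771 values. The list was chosen as targets of MRTF and SRF, so its higher share of boxes is partly built in. A match is a description of letters and not a measured site.

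Other members of the cytoskeletal list fell by differing amounts in AT-3. Flna, the actin crosslinker filamin A, had 3431, 3397 and 3371 CPM with the empty vector and 2229, 2269 and 2318 CPM with Y238A in AT-3. In E0771, Flna had 2979, 3056 and 3070.5 CPM with the empty vector and 2897, 3319.6 and 2838 CPM with Y238A, where the groups overlapped (interaction 0.57 ± 0.07, adjusted p = 2.40e-06). Tagln2, Pdlim5 and Tln1, a calponin-family protein, a scaffold of actin bundles and talin, had AT-3 values of -0.90 ± 0.05, -1.0 ± 0.05 and -0.40 ± 0.04 and E0771 values of -0.18 ± 0.05, -0.03 ± 0.05 and -0.02 ± 0.04, of which only that of Tagln2 passed (adjusted p = 0.0327). The interaction passed for all 3. The interaction did not pass for every target. Actg1, cytoplasmic gamma actin, had 1981, 1962 and 2010.2 CPM with the empty vector and 1589.9, 1539 and 1602 CPM with Y238A in AT-3. In E0771, Actg1 had 1716, 1800.0 and 1758 CPM with the empty vector and 1493, 1331 and 1452 CPM with Y238A, with log2 fold changes of -0.33 ± 0.05 and -0.30 ± 0.05 and so a fall in both lines (interaction 0.03 ± 0.07, adjusted p = 0.856). Csrp1, a LIM domain protein, was alike, with -0.21 ± 0.06 and -0.21 ± 0.06 (interaction 0.01 ± 0.09, adjusted p = 1). Its E0771 call was lost in 5 of 21 alternatives, among them that without E0771 Y238A replicate 2. Actg1, Csrp1 and Vcl were named after their values were seen. Vcl, vinculin, fell in both lines and by more in AT-3, -0.57 ± 0.04 against -0.24 ± 0.04 (interaction 0.33 ± 0.06, adjusted p = 0.000276). Of 22 smooth muscle contractile genes the interaction passed in 6 with the E0771 value higher and in 1 with it lower, 31.8% of the list against 25.8% of all genes, and 12 fell and 3 rose in AT-3. Falls made up 22.2% and rises 21.4% of all genes in AT-3. Without the 3 carry-over libraries the interaction counts were 10 and 1. Actg2, smooth muscle gamma actin, went from 282, 285 and 287 to 109.7, 54.6 and 40.2 CPM in AT-3, and in E0771 had 2.58, 6.25 and 2.89 CPM and 17.5, 6.16 and 3.45 CPM, with a fold change that did not pass (adjusted p = 0.183) and an interaction of 3.29 ± 0.74 (adjusted p = 0.00553). E0771 empty vector replicate 2 and E0771 Y238A replicate 1, the 2 highest of these for their groups, were those with the most AT-3 transcripts, and the part of this in the Actg2 values was not tested; without the 3 carry-over libraries the interaction was 3.40 (adjusted p = 1.66e-05). Smtn and Cald1, smoothelin and caldesmon, had interactions of 0.70 ± 0.08 and 0.30 ± 0.07. Of 39 integrin and focal adhesion genes tested of 40, 14 had higher and 4 had lower E0771 values (46.2%), and without E0771 Y238A replicate 2 these were 13 and 6. Of 23 YAP-TEAD targets 5 were higher and 1 lower, or 26.1%, a share near that over all genes.

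Genes for cytosolic ribosomal proteins fell in AT-3, and in E0771 their values lay near 0. All 79 of the list were tested and all 79 fell in AT-3, with log2 fold changes from -0.85 to -0.22 and a median of -0.49. In E0771 the range was -0.29 to 0.18 with a median of 0.03, and 1 rose and 0 fell past the threshold, or 0 and 1 without E0771 Y238A replicate 2. Of all genes, 22.2% fell in AT-3, and 5.41% rose and 6.64% fell in E0771. The interaction passed in 78 with the E0771 value higher, against 12.2% of all genes. Rps12, of the small subunit, had 929, 982 and 959.6 CPM with the empty vector and 509, 524 and 556 CPM with Y238A in AT-3. In E0771, Rps12 had 937, 924 and 896 CPM with the empty vector and 883, 1034 and 928 CPM with Y238A. The 3 AT-3 Y238A libraries lay below the other 9, with an interaction of 0.90 ± 0.09 (adjusted p = 3.57e-07). Rpl36 and Rpl29 of the large subunit had AT-3 values of -0.75 ± 0.05 and -0.59 ± 0.04, E0771 values of 0.01 ± 0.05 and -0.01 ± 0.04, and interactions of 0.76 ± 0.07 and 0.57 ± 0.06, and Rps23 had an interaction of 0.69 ± 0.07. The count was 77 without the 3 carry-over libraries and 78 without E0771 Y238A replicate 2. Ribosomal protein genes have processed pseudogenes of nearly the same sequence, so their counts depend on how the authors' counting treated shared reads. Compared with the wild-type construct, whose interaction shares these controls, the contrast of wild type minus Y238A by line passed in 22 of the 79, 11 in each direction, against 45.7% of all genes, and its median was -0.01.

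Many cell cycle genes fell, more of them in AT-3 than in E0771. Of 48 S phase genes, 37 fell and 2 rose in AT-3 and 18 fell and 0 rose in E0771, with medians of -0.42 and -0.15, where falls made up 22.2% and 6.64% of all genes, and the interaction passed in 20 with the E0771 value higher and 2 with it lower. Ung, the uracil DNA glycosylase, had 26.2, 24 and 22 CPM with the empty vector and 9.45, 7.94 and 7.24 CPM with Y238A in AT-3. In E0771, Ung had 33.6, 31.7 and 32.1 CPM with the empty vector and 30.4, 36.9 and 27.9 CPM with Y238A, where the groups overlapped (interaction 1.52 ± 0.16, adjusted p = 7.49e-07). Rfc5, of the clamp loader, fell in both, with log2 fold changes of -0.82 ± 0.06 and -0.20 ± 0.06, and lost its E0771 call in 8 of 21 alternatives. Of 53 G2/M genes, 34 fell and 3 rose in AT-3, 17 fell and 0 rose in E0771, and the interaction counts were 12 and 4. Interaction calls made up 45.8% of the S phase list and 30.2% of the G2/M list, the latter near the 25.8% over all genes. Cdca8, borealin of the chromosomal passenger complex, had 119, 118 and 119 CPM with the empty vector and 67.6, 64 and 63.3 CPM with Y238A in AT-3. In E0771, Cdca8 had 112, 117 and 109.5 CPM with the empty vector and 97.8, 90.5 and 97.6 CPM with Y238A (interaction 0.63 ± 0.06, adjusted p = 4.24e-07). The G2/M counts were 7 and 1 without the 3 carry-over libraries and 22 and 4 without E0771 Y238A replicate 2, and the S phase counts were 17 and 2, and 25 and 2. In these 2 fits the interaction passed in 3523 of 18359 and in 4828 of 18464 genes tested. Falls in E0771 numbered 8 of the S phase and 5 of the G2/M genes without the 3 carry-over libraries, and 11 and 10 without E0771 Y238A replicate 2.

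Interferon-stimulated genes rose in both lines. These genes answer type I interferon or cytosolic nucleic acids through STAT and IRF factors, and many carry an interferon-stimulated response element in their promoters. Of 64 genes listed, 59 were tested: 53 rose and 1 fell in AT-3, with a median of 1.96, and 56 rose and 0 fell in E0771, with a median of 1.52. Rises past the threshold made up 21.4% and 5.41% of all genes in the 2 lines. Ifit3, an antiviral RNA-binding protein, had 1.67, 1.36 and 1.93 CPM with the empty vector and 16.2, 22 and 24.7 CPM with Y238A in AT-3. In E0771, Ifit3 had 0.847, 1.01 and 0.470 CPM with the empty vector and 10.6, 8.26 and 10.9 CPM with Y238A. Its rise was 3.67 ± 0.23 and 3.68 ± 0.25, an interaction of 0.01 ± 0.29 (adjusted p = 1). Isg15, a ubiquitin-like modifier, had 2.5 ± 0.16 and 2.82 ± 0.16 (interaction 0.32 ± 0.22, adjusted p = 0.341); the names of both were chosen after the values were seen.

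Of the 59, the interaction passed in 13 with the E0771 value lower and in 13 with it higher (22% each of the 59, against 13.6% and 12.2% of all genes). Without the 3 carry-over libraries the counts were 11 and 9, and without E0771 Y238A replicate 2 they were 14 and 15. The first group held Rsad2, the antiviral enzyme viperin, and Irf1, a transcription factor induced by interferon gamma. Rsad2 (ENSMUSG00000020641, chr12:26442746-26456452) had 0.0463, 0.0421 and 0.0743 CPM with the empty vector and 3.47, 3.78 and 4.14 CPM with Y238A in AT-3. In E0771, Rsad2 had 26.4, 24.7 and 22.9 CPM with the empty vector and 117, 139 and 112 CPM with Y238A. The log2 rise was larger in AT-3, from near 0, while the level stayed far higher in every E0771 library (interaction -3.80 ± 0.37, adjusted p = 4.31e-07). Irf1 had 40.4, 44.4 and 41.6 CPM with the empty vector and 139, 162 and 149.5 CPM with Y238A in AT-3. In E0771, Irf1 had 33.4, 36.2 and 36.1 CPM with the empty vector and 55.6, 43.5 and 52.1 CPM with Y238A, so here the final level was also higher in AT-3 (interaction -1.32 ± 0.11, adjusted p = 1.56e-08). Apol9a, an apolipoprotein L outside the list, had 3.76, 3.42 and 3.0 CPM with the empty vector and 85.9, 92 and 99 CPM with Y238A in AT-3. In E0771, Apol9a had 12.5, 12.8 and 11 CPM with the empty vector and 47.9, 36 and 45.8 CPM with Y238A, ending higher in AT-3 from a lower start (interaction -2.93 ± 0.15, adjusted p = 2.00e-11). Ly6e, a surface protein, and Bst2, tetherin, the latter named after its values were seen, had interactions of -0.49 ± 0.06 and -1.27 ± 0.15.

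The second group held Irgm1, an immunity-related GTPase, and several signalling genes. Irgm1 (ENSMUSG00000046879, chr11:48861968-48871683) had 89.2, 90.1 and 94.5 CPM with the empty vector and 98.1, 109 and 111 CPM with Y238A in AT-3. In E0771, Irgm1 had 23, 26.7 and 25 CPM with the empty vector and 85.3, 77.4 and 89.8 CPM with Y238A. Its E0771 controls were the low group and its E0771 Y238A libraries came close to the AT-3 controls (log2 fold changes 0.22 ± 0.07 and 1.76 ± 0.07, interaction 1.54 ± 0.10, adjusted p = 4.36e-10). Usp18, which removes ISG15 and restrains the receptor, had 1.63, 2.06 and 1.78 CPM with the empty vector and 4.18, 3.5 and 4.95 CPM with Y238A in AT-3. In E0771, Usp18 had 6.23, 6.54 and 4.87 CPM with the empty vector and 41.2, 26.3 and 46.2 CPM with Y238A (interaction 1.49 ± 0.27, adjusted p = 0.000371). Irf7, the transcription factor that amplifies type I interferon, had 6.57, 8.04 and 7.11 CPM with Y238A in AT-3 and 48.3, 38.4 and 52.2 CPM in E0771, with an interaction of 0.79 ± 0.21 (adjusted p = 0.00728) that was 0.72 (adjusted p = 0.0566) without the 3 carry-over libraries. Ddx58, the RNA sensor RIG-I, rose in E0771 by 1.30 ± 0.12 and had 0.23 ± 0.12 in AT-3 (adjusted p = 0.13), with an interaction of 1.07 ± 0.16 (adjusted p = 0.000103). Of these genes Usp18, Irf7 and Ddx58 were named after their values were seen. Ifit2 was the member with opposite calls, -0.33 ± 0.10 in AT-3 and 0.31 ± 0.10 in E0771, and neither call passed without the carry-over libraries, with -0.29 (adjusted p = 0.0556) and 0.25 (adjusted p = 0.296). The E0771 call of Ifit2 (adjusted p = 0.0454 in the main fit) was lost in 13 of 21 alternatives, and its AT-3 call in 2.

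The 250 bases before the start of Rsad2 and Irgm1, genes with interactions of opposite sign, are shown because both hold the core of the response element, searched as GAAA, any 2 bases and GAAA on both strands; capitals mark it. Rsad2 lies on the minus strand at chr12:26456453-26456702, with the motif 120 bases before the start, and Irgm1 on the minus strand at chr11:48871421-48871670, with 2 overlapping copies 30 and 24 bases before it. The starts are those of RefSeq. By the GENCODE coordinates given above for Irgm1, its window lies inside the gene.
Rsad2: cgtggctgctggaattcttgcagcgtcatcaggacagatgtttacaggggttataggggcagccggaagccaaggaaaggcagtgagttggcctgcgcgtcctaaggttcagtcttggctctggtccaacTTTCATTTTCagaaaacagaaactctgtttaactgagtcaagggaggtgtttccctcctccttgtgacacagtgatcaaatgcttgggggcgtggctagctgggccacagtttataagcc
Irgm1: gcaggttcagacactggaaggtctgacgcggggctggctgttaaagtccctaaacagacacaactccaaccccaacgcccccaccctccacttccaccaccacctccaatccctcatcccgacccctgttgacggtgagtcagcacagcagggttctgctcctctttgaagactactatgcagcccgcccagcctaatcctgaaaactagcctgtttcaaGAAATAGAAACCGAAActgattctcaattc
The motif was in this window for 22 of the 46 interferon-stimulated genes matched (47.8%), against 3.46% of all genes with a promoter in the table, 10.3% of 58 matched ribosomal protein genes and 11.5% of 26 genes of class I antigen presentation, and in 2.98% of all RefSeq promoters of this length. The motif was thus present in genes with larger rises in either line. The list was chosen as genes induced by interferon, so its higher share is partly built in.

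Genes of MHC class I antigen presentation, many of them also induced by interferon, mostly rose in AT-3 and fewer of them rose in E0771. Of 34 listed, 31 were tested: 22 rose and 2 fell in AT-3, with a median of 0.93, and 11 rose and 2 fell in E0771, with a median of 0.14. Rises made up 21.4% of all genes in AT-3 and 5.41% in E0771, and falls 22.2% and 6.64%, so fewer genes passed in E0771 in general. The interaction passed in 18 with the E0771 value lower, against 13.6% of all genes, and in 1 with it higher, and the counts were 16 and 1 without the 3 carry-over libraries and 19 and 2 without E0771 Y238A replicate 2. H2-K1, a class I heavy chain, had 69.7, 68.4 and 68 CPM with the empty vector and 145, 151 and 145 CPM with Y238A in AT-3. In E0771, H2-K1 had 67.6, 64.3 and 63.3 CPM with the empty vector and 68.7, 66.2 and 67.2 CPM with Y238A. It about doubled in every AT-3 Y238A library, and the other 9 libraries lay between 63.3 and 69.7 CPM (interaction -1.05 ± 0.06, adjusted p = 1.28e-10). H2-D1, another heavy chain, had 0.69 ± 0.04 and -0.08 ± 0.04, the latter not past the threshold, and the light chain B2m 0.55 ± 0.03 and 0.14 ± 0.03. Erap1, the aminopeptidase that trims peptides, rose by 1.62 ± 0.07 and 0.53 ± 0.07 (interaction -1.1 ± 0.09, adjusted p = 4.13e-08). Class I heavy chain genes are near-identical relatives of each other, so reads could be split among them.

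**Figure D3:**
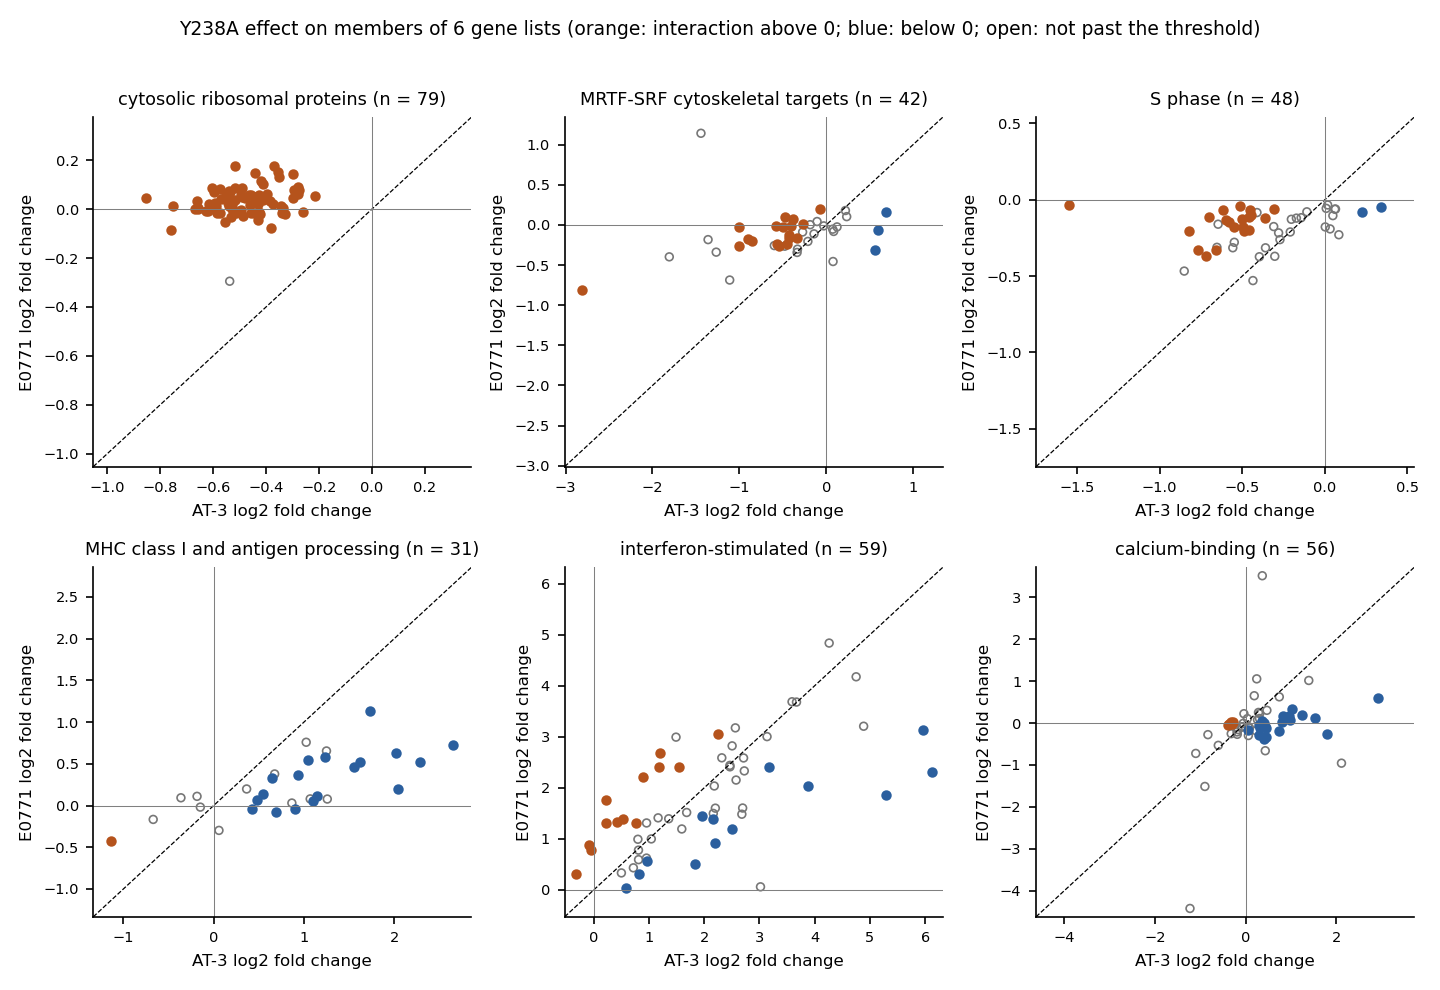
Log2 fold change of Y238A against empty vector in AT-3 (horizontal) and E0771 (vertical) for the tested members of 6 lists, 1 panel each, with the dashed line at equal effects. The ribosomal protein genes lie left of 0 and near 0 on the E0771 axis, the interferon-stimulated genes lie on both sides of the dashed line with medians of 1.96 and 1.52, and most genes of class I presentation lie below it.

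Genes of the unfolded protein response and the integrated stress response differed between lines in both directions. Of 39, all tested, the interaction passed in 15 with the E0771 value higher and in 11 with it lower, and 13 rose and 13 fell in AT-3 against 5 and 1 in E0771. Of all genes, 21.4% rose and 22.2% fell in AT-3, and 5.41% rose and 6.64% fell in E0771. Interaction calls made up 66.7% of the list, against 25.8% of all genes. Without the 3 carry-over libraries 3 rose and 0 fell in E0771. On the higher side were Asns and Trib3, known targets of ATF4, and, named after their values were seen, Mthfd2, Shmt2, Slc7a11 and Atf4 itself. Asns, asparagine synthetase (ENSMUSG00000029752, chr6:7675169-7693254), had 126, 128 and 133 CPM with the empty vector and 48.6, 46.9 and 47.1 CPM with Y238A in AT-3. In E0771, Asns had 559, 512 and 516 CPM with the empty vector and 567, 677 and 541 CPM with Y238A. Trib3, a pseudokinase, had 19.1, 21.3 and 22.6 CPM with the empty vector and 5.38, 5.73 and 5.50 CPM with Y238A in AT-3. In E0771, Trib3 had 147, 108 and 124 CPM with the empty vector and 144, 293 and 117 CPM with Y238A. Both fell in every AT-3 Y238A library, and in E0771 both were highest in Y238A replicate 2, with interactions of 1.61 ± 0.10 (adjusted p = 4.36e-10) and 2.47 ± 0.42 (adjusted p = 0.000781), and of 1.5 (adjusted p = 2.54e-12) and 1.96 (adjusted p = 0.000111) without that library. Mthfd2 and Shmt2, mitochondrial enzymes of one-carbon metabolism, had AT-3 values of -1.64 ± 0.10 and -1.15 ± 0.11, Slc7a11, the cystine transporter, -1.41 ± 0.21, and Atf4 -0.87 ± 0.12. None of these 6 passed in E0771. On the lower side were chaperones of the endoplasmic reticulum. Dnajb11, a co-chaperone of BiP (ENSMUSG00000004460, chr16:22857845-22879634), had 140.5, 140.3 and 147 CPM with the empty vector and 717, 683 and 669 CPM with Y238A in AT-3. In E0771, Dnajb11 had 94.6, 101 and 96.4 CPM with the empty vector and 140.2, 114 and 134 CPM with Y238A (interaction -1.87 ± 0.08, adjusted p = 6.85e-12). Pdia4, a protein disulfide isomerase, had 1.68 ± 0.05 and 0.55 ± 0.05, and Hyou1, a large chaperone, 0.72 ± 0.04 and -0.10 ± 0.04, the latter not past the threshold. Sdf2l1 and Hsp90b1, also named after their values were seen, had AT-3 values of 2.02 ± 0.12 and 0.97 ± 0.06 and interactions of -1.94 ± 0.17 and -0.81 ± 0.09. Without E0771 Y238A replicate 2 the counts were 14 higher and 16 lower, and the median interaction went from 0.04 to -0.13.

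Of 41 entries for glycolysis and hypoxia genes, the interaction passed in 11 with the E0771 value lower and in 2 with it higher, and in 7 and 2 without the 3 carry-over libraries. In the main fit that was 31.7% of the list, against 25.8% of all genes. Aldoa, the muscle-type aldolase, rose in both lines, by 0.90 ± 0.04 and 0.17 ± 0.04, and Hk1, hexokinase 1, had 284, 288 and 293 CPM with the empty vector and 531, 562 and 581 CPM with Y238A in AT-3. In E0771, Hk1 had 234, 250.03 and 240.3 CPM with the empty vector and 262, 216 and 273 CPM with Y238A (interaction -0.90 ± 0.09, adjusted p = 3.20e-07). Slc2a1, the glucose transporter GLUT1, went the other way: it fell in AT-3 by 0.79 and had 0.02 in E0771 on the log2 scale (interaction 0.80 ± 0.06, adjusted p = 1.74e-09). Of 30 p53 targets, 7 had lower and 1 had higher E0771 values, a share of 26.7% that is near that over all genes, and 11 and 1 without E0771 Y238A replicate 2. Cdkn1a, the kinase inhibitor p21, had 9.88, 7.37 and 8.84 CPM with the empty vector and 39.9, 36.8 and 34.9 CPM with Y238A in AT-3. In E0771, Cdkn1a had 53.3, 48.7 and 53.4 CPM with the empty vector and 61.2, 89.2 and 66.8 CPM with Y238A (interaction -1.62 ± 0.18, adjusted p = 4.39e-06). It rose in both lines and without overlap of the groups, and the E0771 value without Y238A replicate 2, its highest library, was 0.30 (adjusted p = 0.046). Among 36 tested genes of NF-kB and cytokine signalling the counts were 8 lower and 3 higher (30.6%). Tnfaip2 had 1.79 ± 0.06 in AT-3 and 0.74 ± 0.06 in E0771. Of 29 cholesterol synthesis genes, 4 were lower and 6 higher (34.5%), and 4 each without the 3 carry-over libraries. Ebp, a sterol isomerase, rose by 1.59 ± 0.07 and 0.45 ± 0.07, and Scd1, a fatty acid desaturase, had 1.66 ± 0.08 and 0.08 ± 0.08, the latter not past the threshold. Of 57 nuclear genes of oxidative phosphorylation, 9 were lower and 6 higher (26.3%, near the share over all genes), and 1 and 6 without the 3 carry-over libraries. Of 13 mitochondrially encoded genes 1 was lower and 0 were higher (7.69%).

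Among matrix genes, more fell than rose in AT-3, and more rose than fell in E0771. Of 55 collagen and matrix genes 53 were tested: 20 fell and 8 rose in AT-3, 2 fell and 11 rose in E0771, the interaction passed in 16 with the E0771 value higher and 5 with it lower, and 5 members were among the genes with opposite calls. Over all genes 22.2% fell and 21.4% rose in AT-3, and 6.64% fell and 5.41% rose in E0771. Interaction calls made up 39.6% of the list, against 25.8% of all genes, and opposite calls 1.0% of all genes. Without the 3 carry-over libraries 0 fell and 11 rose in E0771. Col5a3, a fibrillar collagen chain (ENSMUSG00000004098, chr9:20770050-20815067), had 35.9, 37.5 and 36.3 CPM with the empty vector and 451, 443 and 386 CPM with Y238A in AT-3. In E0771, Col5a3 had 169.6, 166 and 159 CPM with the empty vector and 304, 303 and 287 CPM with Y238A. It rose in both lines with all libraries apart, by 3.55 ± 0.06 and 0.85 ± 0.05 (interaction -2.69 ± 0.08, adjusted p = 6.18e-15), and Col16a1 had a like pattern (2.16 ± 0.05 and 0.60 ± 0.05). Col3a1, another fibrillar chain, had 16.9, 19.9 and 20.2 CPM with the empty vector and 3.37, 5.42 and 4.70 CPM with Y238A in AT-3. In E0771, Col3a1 had 517, 511 and 541 CPM with the empty vector and 610.1, 479 and 641 CPM with Y238A, with overlapping groups (interaction 2.22 ± 0.19, adjusted p = 8.97e-07). Col6a2, of collagen VI, had -2.06 ± 0.10 and -0.16 ± 0.10, the latter not past the threshold. The basement membrane chains Col4a1 and Col4a2, named after their values were seen, fell slightly in AT-3 (-0.15 ± 0.04 and -0.18 ± 0.04) and rose slightly in E0771 (0.23 ± 0.04 and 0.19 ± 0.04). Ltbp4, a binding protein of latent TGF-beta, had 40.5, 41.4 and 40.5 CPM with the empty vector and 38.2, 36.1 and 33.6 CPM with Y238A in AT-3. In E0771, Ltbp4 had 183, 174 and 165 CPM with the empty vector and 330.5, 393 and 289 CPM with Y238A (interaction 1.14 ± 0.14, adjusted p = 7.95e-06). Tgfb2, a TGF-beta ligand, fell in both, with log2 fold changes of -0.94 ± 0.06 and -0.27 ± 0.07. The median interaction of the matrix list was 0.19, 0.78 without the 3 carry-over libraries and 0.26 without E0771 Y238A replicate 2. The summed level of 9 fibroblast markers was also lower with Y238A in AT-3, 499 to 542 CPM with the empty vector and 377 to 422 CPM with Y238A, against 85.8 to 103 and 68.0 to 95.2 CPM in E0771, and their part in the matrix values was not tested. The lower AT-3 sum lay in Pdgfrb, at a mean of 411 and then 287 CPM, while Pdgfra had 111 and then 118 CPM. Of the 6 markers tested, 1 fell and 0 rose in AT-3. The Wnt ligand Wnt7b was another opposite call, with -1.53 ± 0.10 in AT-3 and 0.41 ± 0.08 in E0771.

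Among genes tied to calcium, which the series title names, calcium-binding genes rose more often than they fell in AT-3. Of 67 calcium-binding genes 56 were tested: 24 rose and 13 fell in AT-3, 6 rose and 9 fell in E0771, and the interaction passed in 20 with the E0771 value lower and 5 with it higher, with a median of -0.21. Over all genes 21.4% rose and 22.2% fell in AT-3, and 5.41% rose and 6.64% fell in E0771. The interaction passed in 13.6% of all genes with the E0771 value lower and in 12.2% with it higher. S100a4, a calcium-binding protein that acts on myosin, had 389.9, 428 and 448 CPM with the empty vector and 948, 1006 and 1048 CPM with Y238A in AT-3. In E0771, S100a4 had 37, 44.7 and 36.8 CPM with the empty vector and 43.5, 44.7 and 47.3 CPM with Y238A (interaction -1.05 ± 0.10, adjusted p = 1.97e-07). Camkk1, a kinase that activates calmodulin-dependent kinases, had 5.83, 5.82 and 7.40 CPM with the empty vector and 46.3, 46.4 and 50.8 CPM with Y238A in AT-3. In E0771, Camkk1 had 20.2, 22.6 and 25.7 CPM with the empty vector and 34.1, 31.2 and 38.3 CPM with Y238A (interaction -2.32 ± 0.16, adjusted p = 1.42e-09). Both rose in AT-3 with groups far apart, and of the E0771 values that of Camkk1 passed (0.60 ± 0.11) and that of S100a4 did not (adjusted p = 0.0887). Rcan1, a calcineurin inhibitor, had opposite calls and is named for that reason, with 0.45 ± 0.08 in AT-3 and -0.32 ± 0.08 in E0771. Of 94 genes for calcium channels, pumps and stores, 81 were tested, and the interaction passed in 10 with the E0771 value lower and 6 with it higher, shares at or under the background. Piezo1, a channel opened by membrane tension, rose in both lines, by 0.88 ± 0.07 and 0.27 ± 0.07, and its E0771 value without Y238A replicate 2 was 0.14 (adjusted p = 0.0777). Cacna1c, the pore of the L-type channel, had 22.8, 23.1 and 21.2 CPM with the empty vector and 9.59, 8.38 and 7.93 CPM with Y238A in AT-3. In E0771, Cacna1c had 22.5, 21.5 and 19.6 CPM with the empty vector and 21.3, 21.9 and 18.7 CPM with Y238A, with overlapping groups (interaction 1.33 ± 0.15, adjusted p = 1.76e-06). Mcub, Saraf and Itpr3, a uniporter subunit, a brake on store-operated entry and an IP3 receptor, named because they had opposite calls, had them with log2 fold changes of at most 0.41 in size, and those of Itpr3 passed in neither line without the 3 carry-over libraries. Of 92 potassium channel genes 51 were tested, with 4 interactions above and 3 below 0 (3 and 1 without the 3 carry-over libraries), and of 37 tested genes of the sodium-potassium pump and cotransporters 3 and 7. In the main fit these made up 13.7% and 27% of the lists, against 25.8% of all genes. Kcnn4, a calcium-activated potassium channel, fell in AT-3 by 0.46 and had 0.07 in E0771 on the log2 scale (interaction 0.53 ± 0.08, adjusted p = 7.49e-05). Atp1b3, a pump subunit, rose in AT-3 by 0.67 ± 0.04 and had 0.10 ± 0.04 in E0771, which did not pass (interaction -0.57 ± 0.06, adjusted p = 1.87e-07).

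**Figure D4:**
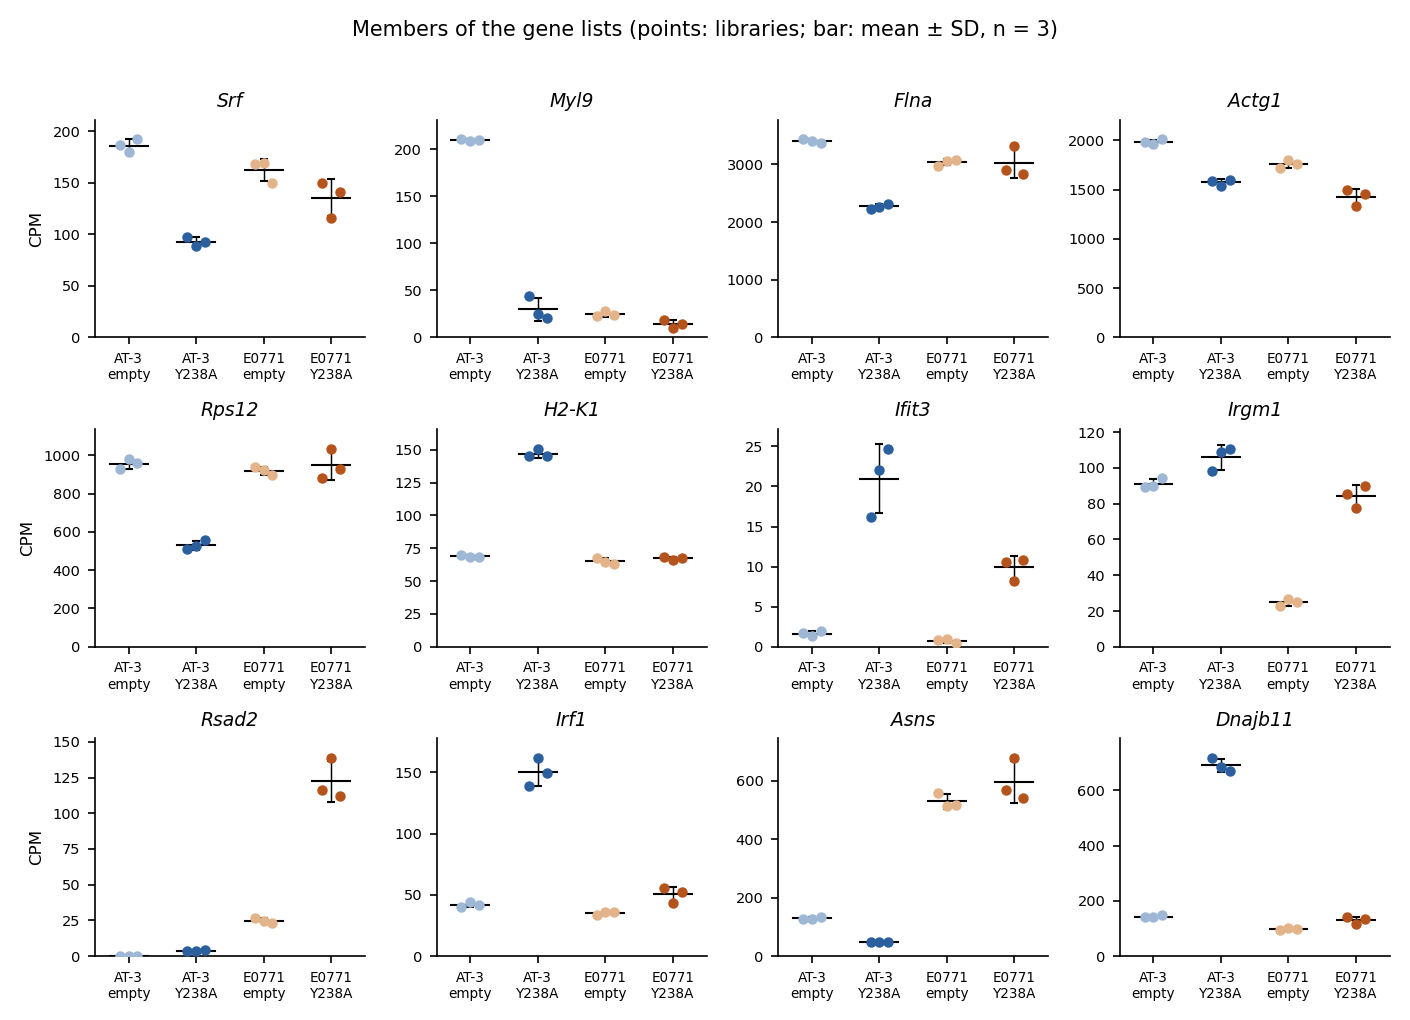
CPM (vertical, linear from 0) of 12 list members in each of the 12 libraries, by line and construct, with the mean and SD of 3 libraries. Actg1 drops and Ifit3 climbs in both lines, Rps12 drops and H2-K1 climbs in AT-3 alone, and Irgm1 climbs mostly in E0771.

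Few genes that changed the same way in both lines changed by more in E0771. Of the 26 such genes 18 rose and 8 fell, and 8 (30.8%) were on the interferon-stimulated list, against 12 of the 579 larger in AT-3 (2.07%) and 59 of all 17841 genes (0.331%). Beside Irgm1, named by rule, Usp18 and Irf7, they included Dhx58, Ifi47, Parp14 and Parp9, and the interaction of Parp9 was 0.46 (adjusted p = 0.116) without the 3 carry-over libraries. Genes outside that list, named here after their values were seen, included 2 that are known to follow ERK signalling. Etv4, an ETS transcription factor (ENSMUSG00000017724, chr11:101769742-101785371), had 40.1, 41.7 and 41.5 CPM with the empty vector and 50.9, 47 and 42.9 CPM with Y238A in AT-3. In E0771, Etv4 had 69.1, 68 and 65 CPM with the empty vector and 135, 132 and 134 CPM with Y238A. Dusp6, an ERK phosphatase, had 24, 21.4 and 19.4 CPM with the empty vector and 35.9, 29.1 and 24.4 CPM with Y238A in AT-3. In E0771, Dusp6 had 16.6, 16.2 and 16.5 CPM with the empty vector and 40, 40.6 and 40.9 CPM with Y238A. Both rose in all E0771 Y238A libraries to about double the control level or more, and rose less in AT-3, with interactions of 0.80 ± 0.08 (adjusted p = 2.35e-07) and 0.84 ± 0.14 (adjusted p = 0.000161). The AT-3 call of Etv4 was lost without the 3 carry-over libraries, at 0.13 (adjusted p = 0.105). Spry1, the feedback inhibitor of receptor tyrosine kinase signalling named above, moved otherwise. It fell in every AT-3 Y238A library and did not pass in E0771, and ERK signalling itself was not tested. Pros1, the anticoagulant protein S, fell by more in E0771, from 3.69, 5.0 and 3.33 to 1.37, 1.22 and 1.26 CPM (interaction -1.32 ± 0.18, adjusted p = 1.62e-05). Of the 234 genes called in E0771 alone, 103 rose and 131 fell. Among them were Ifi211, Ifi205 and Mndal, neighbouring members of the Ifi200 family on chromosome 1, whose E0771 values were 1.28 ± 0.09, 1.39 ± 0.18 and 1.22 ± 0.16 and whose AT-3 values were 0.07 ± 0.09, 0.20 ± 0.17 and -0.22 ± 0.15. Their relative Ifi204 rose in both lines (0.84 ± 0.10 and 1.38 ± 0.09). Genes of this family are close copies of each other, so reads could be split among them.

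The difference between lines was in many genes not the same for the libraries with wild-type and with Y238A MRTFA. The amount of construct differed as well. The wild-type libraries had 7081, 4835 and 4385 CPM of it in AT-3 and 866, 707 and 709 CPM in E0771. These values lay above those of Y238A in the same line, so the form and the amount of MRTFA cannot be told apart. The contrast of wild type minus Y238A, by line, from which the empty vector cancels, passed in 8147 genes (45.7%), and in 3031 of the 4603 genes of the Y238A interaction (65.8%). It holds the same Y238A libraries as that interaction, with the opposite sign. Its overlap with genes selected on the interaction, and opposite signs in them, are therefore partly built in. Of the 20 named genes with opposite changes the contrast passed in 17. Those that did not pass were Hist1h1c at -0.05 ± 0.12 (adjusted p = 0.799), Sord at -0.11 ± 0.17 (adjusted p = 0.668) and Stard10 at -0.33 ± 0.22 (adjusted p = 0.25). For Vdr it was 5.11 ± 0.19 (adjusted p = 1.67e-11) and for Jup -3.02 ± 0.13 (adjusted p = 5.13e-12), both opposite in sign to the Y238A interaction. It was -1.18 ± 0.10 (adjusted p = 1.57e-08) for Srf, 1.59 ± 0.06 (adjusted p = 3.71e-14) for H2-K1 and 0.26 ± 0.10 (adjusted p = 0.0344) for Irgm1. Of the 59 interferon-stimulated genes it passed in 43 with the E0771 value higher and 1 with it lower.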

How the data were processed

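RNA from 18 libraries was sequenced by the submitters. The deposited values are raw read counts per gene, and per the submitters' processing notes STAR, featureCounts and GRCm38 were used; versions, strand setting and the treatment of shared reads are not given in the sources used here. The deposited counts hold an entry named MRTFA, taken here as the construct, beside the mouse gene Mrtfa.

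All 18 libraries were fitted as 6 group means (12 residual degrees of freedom) with the quasi-likelihood test of edgeR 4.0.16 in R 4.3.3, after TMM scaling and a filter on low counts (filterByExpr, minimum count 10 and minimum total 15). Of 32286 entries, 17841 were tested. The threshold was an adjusted p of 0.05 (Benjamini-Hochberg, all 17841 genes), and standard errors come from the log2 value and its F statistic. The code was tested on simulated data. CPM values use the TMM library sizes, and library totals ran from 81824854 to 100630270 counts in the 12 libraries compared.

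Members and gene lists were chosen with earlier results of these data known. Genes were named by a written rule: the factors, the 10 strongest opposite changes per direction, the 10 highest and 10 lowest interactions, and up to 4 members of each list with the smallest interaction p; other names are marked. Lists were described by counts and medians, with no test. The alternatives tried comprised DESeq2 1.42.0, size factors from DESeq2, library totals, other filters, the 12 libraries alone, a replicate block, and leaving out libraries. Symbols were matched by gene identifier for 32158 of the entries, gene coordinates came from the GENCODE annotation of GRCm38, and promoters from RefSeq (GRCm38.p6). The rule also covered genes at 1 CPM in 1 line only and the 4 strongest called with the same sign in both lines; fewer genes were named for room. Some members of the lists are counted but not reported here by name.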

Additional observations from a re-analysis of the deposited data

Results flagged for a closer look

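The Y238A effect differed between the lines, by a test of the difference itself, in 4603 genes, and 179 of these changed in opposite directions. The 20 opposite changes named in the report are listed here for the same reason, with the log2 difference (E0771 minus AT-3). It was 2.50 for Irf5, 2.43 for Mmp9, 1.92 for Jup, 1.75 for Stard10 and 1.23 for Gpt2. For Dhrs9 it was 1.15, for Gdpd5 1.11, for Sgms2 1.03, for Adh7 1.02 and for Pltp 0.97. The E0771 call of Adh7 was lost in 15 of 21 alternatives. In the other direction the log2 difference was -2.26 for Vdr, -2.04 for Sord, -1.89 for Aqp1, -1.63 for Ndrg4 and -1.51 for Id3. It was -1.50 for Man1a, -1.46 for Hist1h1c, -1.17 for Krt80, -1.13 for Acad11 and -1.10 for Pde4b. The genes were selected by these tests, and the lines also differed in the amount of construct, so line and amount cannot be told apart.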

How the results depend on the processing

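The number of genes with a different effect ran from 3980 to 4828 when a library was left out, that with a higher E0771 value from 1761 to 2282, that with a lower one from 2154 to 2546, opposite calls from 99 to 222, calls in AT-3 from 6787 to 8304 and in E0771 from 1251 to 2340. The lowest counts of opposite calls and of E0771 calls came without E0771 empty vector replicate 2. Without the 3 carry-over libraries, opposite calls numbered 73 and E0771 calls 909, and 3328 of the 4603 genes (72.3%) were still called; that fit has fewer samples. DESeq2 gave 5447 genes, 295 opposite calls and 3134 in E0771; the cause was not tested. Where a log2 value of at least 1 in size was also asked for, the counts were 1011 (406 higher and 605 lower), 14, 1844 and 358, fewer by construction. With the replicate number as a block they were 4754, 205, 7796 and 2303; deviations of same-numbered libraries had a correlation over 0.1 in 8 of 18 pairs, from -0.354 to 0.417, and their mean was above that of other numbers in 6 of 6 pairs of groups, a hint from the data and not the design, so the numbers were not taken to pair the samples. No named gene's value past the threshold changed sign under these alternatives, while the majority sign of the interaction calls did (47.2% above 0 against 51.9% with DESeq2 size factors and 56.8% for the 12 libraries alone), as did the medians of some lists, among them the stress response list (0.04 against -0.13 without E0771 Y238A replicate 2). Counting both mates makes counting error larger than the totals imply, and genes near 0 CPM in a line have the widest errors.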
